A study of Homo sapiens with 4 samples.

Results

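The 37 genes of the human mitochondrial genome were described in RNA-seq libraries of TXNDC9-knockout and wild-type cells. They were taken as the rows of the deposited expression table whose symbol begins with MT-, and 37 of the 57979 rows with values met this rule: 13 protein genes, 2 rRNA genes and 22 tRNA genes. The study compared HepG2 cells, a human liver cancer line, in a wild-type group (WT) and in a knockout group (KO) in which CRISPR-Cas9 had been directed at TXNDC9, a thioredoxin-domain protein, with 2 libraries in each group. Per the study's methods, HepG2 cells were grown in DMEM with FBS, and no other agent is named for these libraries. KO cells carried lentiCRISPRv2 with either of 2 guides and were sorted, and they are not said to be a single clone. For its western blot of TXNDC9, the study names sorted cells with vector alone as the control. Whether the WT libraries came from such cells or from cells without vector is not given in the sources used here. Polyadenylated RNA was captured on beads, and the values are FPKM, fragments scaled to transcript length and to the fragments of the library. The labels do not say whether the libraries of a group came from separate cultures, so p-values measure only the spread between these libraries.

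Mitochondrial DNA (mtDNA) is a small circle present in many copies in a cell, and it encodes core subunits of the respiratory chain together with the rRNAs and tRNAs that translate them inside the organelle. Both strands are transcribed as long precursors by the polymerase POLRMT with TFAM and TFB2M. The precursors are cut where tRNAs lie between the other genes, and most mitochondrial mRNAs then receive short poly(A) tails from MTPAP. The nuclear genome holds many old insertions of mtDNA, which are annotated as pseudogenes and resemble the mtDNA genes in sequence.

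The labels were checked in the same table. TXNDC9 had 35.1 and 37.3 FPKM in WT and 21.9 and 27.6 in KO, a log2 fold change of -0.55 (SE 0.14) on the log2(FPKM + 0.1) scale, with an adjusted p of 0.0145 by limma with Benjamini-Hochberg adjustment over 13246 genes. Calls below needed an adjusted p under 0.01 together with a 2-fold change, so TXNDC9 was not called. The study reported reduced TXNDC9 protein by western blot, and the values here are RNA and do not measure the protein. Of 10 hepatocyte and hepatoma markers, none passed 1 FPKM in any library. The highest value was 0.449 FPKM and 2 markers were at 0, while their summed level was 0.446 and 0.733 in WT and 0.0479 and 0.174 in KO. The defining markers of the labelled HepG2 line, such as ALB and APOA1, were thus near 0 in these libraries. None of 4 leukocyte markers passed 1 FPKM, with 0.638 as the highest value. Of 4 fibroblast markers 2 passed it, COL1A1 and DCN, while LUM stayed below it and COL1A2 was at 0 in every library. The summed level of the 4 was 33.6 and 24.8 in WT and 21.98 and 18.7 in KO. Most of it was COL1A1, with 31.45 and 22.8 in WT and 20.68 and 17.55 in KO. Of 3 endothelial markers, CDH5 passed 1 FPKM and was called higher, while PECAM1 and VWF stayed below that level. The sum of the 3 was 0.803 and 1.22 in WT and 4.41 and 3.42 in KO. The FPKM sums of the libraries ran from 535973 in KO to 971102 in WT, and both KO sums were below both WT sums. The part of these differences in the TXNDC9 values and in the results below was not tested. The lower TXNDC9 values in KO are on the deposited scale, so the labels were checked on that scale alone. No TXNDC9 value rescaled to the same FPKM sum is given here.

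Each of the 37 mtDNA genes was listed at 0 FPKM in each of the 4 libraries. MT-ND1, MT-ND2, MT-ND3, MT-ND4, MT-ND4L, MT-ND5 and MT-ND6, which encode the 7 mtDNA subunits of complex I (NADH dehydrogenase), stood at 0 in WT 1, WT 2, KO 1 and KO 2. The same held for MT-CYB, which encodes cytochrome b of complex III, and for MT-CO1, MT-CO2 and MT-CO3, the 3 core subunits of complex IV (cytochrome c oxidase). MT-ATP6 and MT-ATP8, the 2 mtDNA subunits of complex V (ATP synthase), were listed at 0 in every library too. MT-RNR1 and MT-RNR2, the rRNAs of the small and large mitochondrial ribosomal subunits, had 0 FPKM in all 4 libraries, and so had the 22 tRNAs. WT and KO therefore held identical values for every mtDNA gene. No order among the genes, no fold and no share of one gene in the sum of the others could be computed, and the part of mtDNA in the FPKM sum was 0% in each library.

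A value of 0 in a table without counts can be a failed or omitted estimate, and it does not show that the RNA was absent. The depth behind the values is unknown. The sources used here do not say whether reads of mtDNA were removed before quantification, masked, or dropped for mapping to more than 1 place, so the contribution of these steps was not tested. With 0 in every library, the table allows no statement on whether mtDNA genes differ between WT and KO. In bulk RNA, fewer cells and less RNA per cell cannot be told apart.

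The sequence context of the 15 protein and rRNA genes was read from hg38. MT-ATP8 (chrM:8366-8572) and MT-ATP6 (chrM:8527-9207) share 46 bases, MT-ND4L (chrM:10470-10766) and MT-ND4 (chrM:10760-12137) share 7, and MT-ATP6 and MT-CO3 (chrM:9207-9990) share 1. Of the 13 protein genes, 12 lie on the plus strand, and MT-ND6 (chrM:14149-14673) lies on the minus strand. Lengths ran from 207 bases in MT-ATP8 to 1812 in MT-ND5 (chrM:12337-14148). The rRNA genes measured 954 and 1559 bases, and the tRNA genes 59 to 75.

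The 3′ ends show how these transcripts depend on processing and on a tail, and the last 18 bases of 5 genes are given 5′ to 3′ on the coding strand, with the stop codon or its incomplete part in capitals:
MT-ND1: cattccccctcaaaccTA
MT-CO3: tctattgatgagggtctT
MT-ND4: ttaccgggttttcctctT
MT-CYB: aaatactcaaatgggccT
MT-ND6: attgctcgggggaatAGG
In the human mitochondrial genes with an incomplete stop codon, the tail supplies the missing bases. This was the case in 6 of the 13 protein genes: MT-ND2, MT-CO3, MT-ND3, MT-ND4 and MT-CYB end in 1 base of the codon, and MT-ND1 ends in 2. In each of the 6, a tRNA gene begins directly after the last base, with a gap of 0. The other 7 genes end in a complete codon. MT-ND6, which ends in one, encodes an mRNA known to lack a stable poly(A) tail.

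In the rest of the table, a protein-coding gene was usually above 0 in some library. Of 18727 protein-coding genes on the autosomes, 3126 (16.7%) were at 0 in all 4 libraries, and the share per chromosome ran from 8.14% on chromosome 22 to 31.5% on chromosome 21. On mtDNA it was 13 of 13. For the tRNAs the background is different, since 2522 of 2524 autosomal rows with a canonical transcript under 100 nt (99.9%) were at 0 as well. A tRNA at 0 was thus shared with nearly all short nuclear genes, whereas the protein genes of mtDNA stood apart from those of every autosome.

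Nuclear subunits of the same complexes were listed at high levels. All 74 nuclear subunit genes of complexes I, III, IV and V passed an average of 1 FPKM, with averages over the 4 libraries from 25.98 to 1037 FPKM and a median of 226. The lowest belonged to complex I. The plot of levels by complex shows them beside the mtDNA subunits, which were listed at 0 and are not measured low levels.

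**Figure D1:**
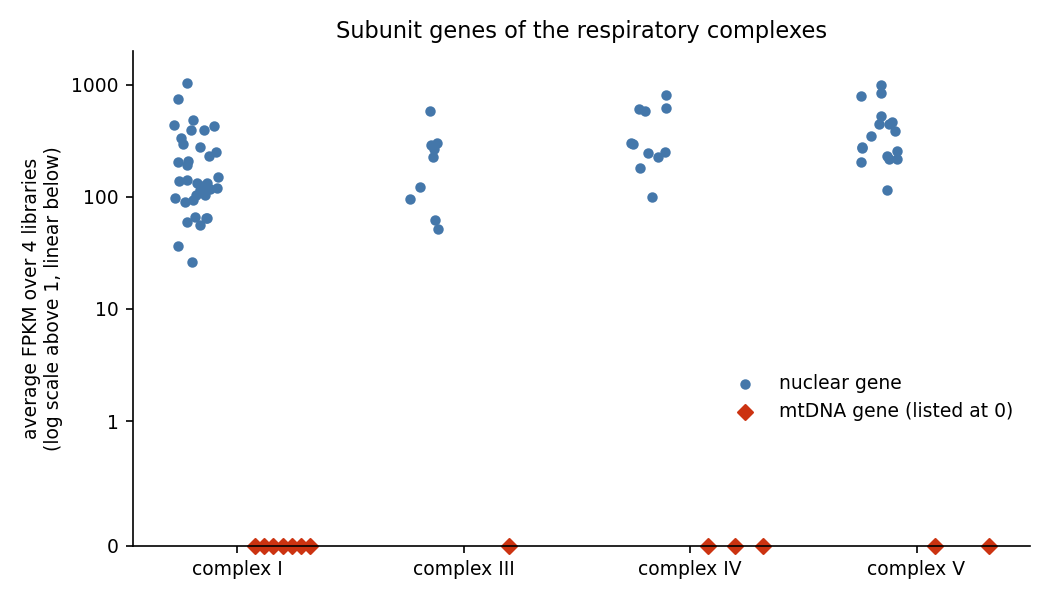
Average FPKM over the 4 libraries (log axis above 1, linear below) of nuclear subunit genes (blue circles, 74 genes) and mtDNA subunit genes (red diamonds, 13 genes) of complexes I, III, IV and V. All mtDNA genes lie at 0, and the nuclear genes lie between 25.98 and 1037 FPKM.

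Each mtDNA gene was next compared with the nuclear chromosomes, because part of its sequence also occurs there. All windows of 100 bases along the 15 protein and rRNA genes were searched in hg38. The length was chosen here, as the read length is not given in the sources used here. Of 12423 windows, 8.36% occurred without a mismatch on a nuclear chromosome and 34.7% occurred with at most 2 mismatches. The remainder, most of the sequence of these genes, had no such nuclear match.

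The genes differed widely in this respect. MT-ATP6 had the largest share of windows with a nuclear match within 2 mismatches, 86.9%, followed by MT-ND2 (chrM:4470-5511) with 74.3%, MT-CO1 (chrM:5904-7445) with 73.3% and MT-CO2 (chrM:7586-8269) with 67.4%. The share was 46.1% in MT-CO3 and 45.8% in MT-RNR1 (chrM:648-1601). MT-ND1 (chrM:3307-4262) had 29.5%, MT-ATP8 21.3%, MT-RNR2 (chrM:1671-3229) 20.6% and MT-ND4 19.5%. It was 11.03% in MT-ND6, 5.56% in MT-ND4L, 3.50% in MT-ND5 and 0.48% in MT-CYB (chrM:14747-15887). MT-ND3 (chrM:10059-10404) had none. Without a mismatch, MT-CO1 led with 27.9%, then MT-ND2 with 26.1% and MT-RNR1 with 21.2%, while 8 of the 15 genes had no window with an exact nuclear match. All 15 genes were listed at 0, and the part of nuclear matches in these zeros was not tested.

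**Figure D2:**
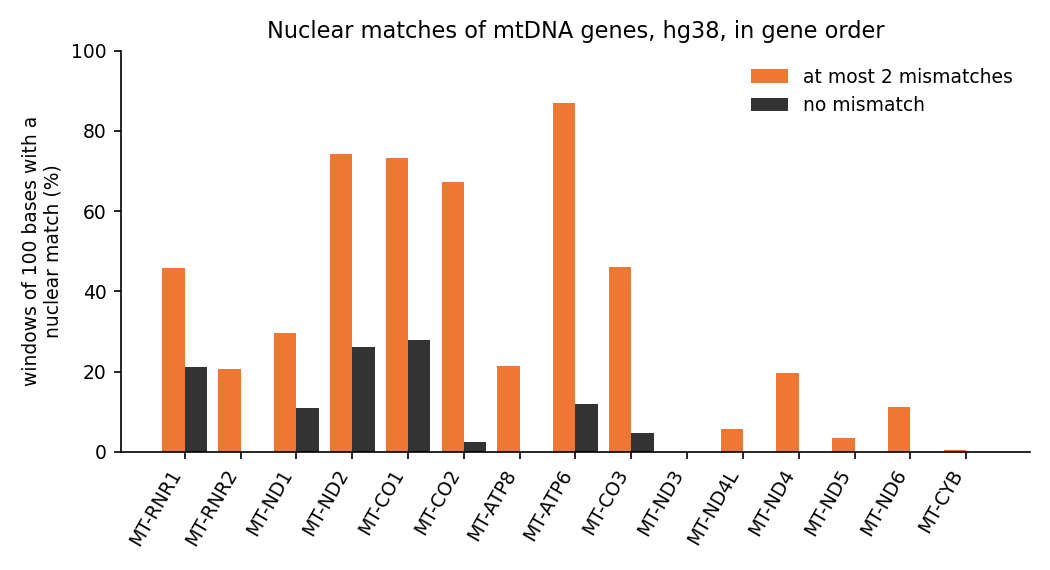
Share of 100-base windows (percent) of each mtDNA protein and rRNA gene that occur on the nuclear chromosomes of hg38, with at most 2 mismatches (orange) or none (black), in gene order. MT-ATP6 reaches 86.9% and MT-ND3 has no match.

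The nuclear copies themselves were present as rows of the table. By symbol, 386 rows were copies of mtDNA genes. Of these, 343 were at 0 in all 4 libraries, 43 were above 0 in at least 1 library, and 3 had an average above 1 FPKM. The share at 0 among all autosomal lncRNA and pseudogene rows was 67.7% (18656 of 27548). The 3 copies above 1 FPKM were MTRNR2L12, MTND4P12 and MTCO2P2, and the other 40 that were above 0 averaged at most 1 FPKM.

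Stretches of both abundant copies and of a copy listed at 0 are printed beside their mtDNA counterparts, because they show how alike the copies and the mtDNA genes are in sequence. Each is 90 bases of hg38, read 5′ to 3′, and capitals mark the bases that differ within a pair. MTND4P12 lies at chr5:134927304-134927393 on the minus strand and MT-ND4 at chrM:11403-11492 on the plus strand, with 3 differences. MTRNR2L12 lies at chr3:96617661-96617750 on the minus strand and MT-RNR2 at chrM:2156-2245, with 6 differences. MTATP6P1 lies at chr1:633991-634080 on the plus strand and MT-ATP6 at chrM:8822-8911, with 1 difference.
MTND4P12: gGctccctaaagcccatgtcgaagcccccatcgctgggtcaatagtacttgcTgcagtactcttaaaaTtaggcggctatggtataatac
MT-ND4: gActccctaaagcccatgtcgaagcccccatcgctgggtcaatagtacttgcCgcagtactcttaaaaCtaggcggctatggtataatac
MTRNR2L12: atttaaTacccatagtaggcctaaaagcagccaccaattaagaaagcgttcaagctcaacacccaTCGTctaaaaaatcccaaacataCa
MT-RNR2: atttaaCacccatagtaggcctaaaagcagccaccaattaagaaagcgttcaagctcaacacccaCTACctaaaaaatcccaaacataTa
MTATP6P1: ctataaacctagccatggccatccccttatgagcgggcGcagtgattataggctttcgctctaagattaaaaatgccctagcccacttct
MT-ATP6: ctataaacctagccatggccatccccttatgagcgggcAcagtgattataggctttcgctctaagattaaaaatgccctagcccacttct

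MTRNR2L12 is a copy of the large rRNA gene on chromosome 3 (chr3:96617186-96618223, position from RefSeq GRCh38.p14), with 95.1% identity to mtDNA over its best alignment and 99 bases as the longest identical run. Its values were 383.2 FPKM in WT 1, 370.6 in WT 2, 325.9 in KO 1 and 295.6 in KO 2. Both KO libraries lay below both WT libraries, as did the FPKM sums of the libraries. The means were 376.9 ± 8.88 FPKM in WT and 310.8 ± 21.41 in KO (SD, n = 2). The log2 fold change of -0.28 (SE 0.13) on the log2(FPKM + 0.1) scale did not pass the test, with an adjusted p of 0.102 by limma with Benjamini-Hochberg adjustment. The direction turned to 0.40 when every library was rescaled to the same FPKM sum.

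MTND4P12, a copy of MT-ND4 on chromosome 5 (chr5:134926660-134928036, minus strand), had 95.8% identity and a longest identical run of 71 bases. It was listed at 423.0 FPKM in WT 1, 375.8 in WT 2, 177.0 in KO 1 and 207.9 in KO 2. The groups did not overlap, and neither did the FPKM sums of the libraries. The means were 399.4 ± 33.4 FPKM in WT and 192.4 ± 21.8 in KO (SD, n = 2), 2.08-fold lower in KO, with a log2 fold change of -1.06 (SE 0.14) and an adjusted p of 0.00168 by limma with Benjamini-Hochberg adjustment over 13246 genes. MTND4P12 was therefore called lower. Of all genes tested, 15.3% were called lower and 14.2% higher. The call was lost after rescaling to the same FPKM sum, where the log2 fold change was -0.375 (limma adjusted p = 0.0563), after a correction for length and GC content (-0.79), and when WT 1 (-0.97), KO 1 (-0.94) or KO 2 (-1.17) was left out.

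MTND4P12 lies inside PCBD2 on the opposite strand, and the use of strand in the quantification is not given in the sources used here. PCBD2, a dimerisation cofactor of a transcription factor, stood at 7.67 and 9.18 FPKM in WT and at 5.87 and 6.52 in KO. Its log2 fold change was -0.43, with an adjusted p of 0.0338 by limma, so it was not called. This value is on the deposited scale, where the FPKM sums of both KO libraries were also lower. No PCBD2 value rescaled to the same FPKM sum is given here, so its direction on that scale was not tested. The other copies of the same chromosome 5 insertion were far lower than MTND4P12. MTND4LP30 was above 0 in WT 2 alone, with 2.26 FPKM. MTND6P4 had 0.41 and 0.27 FPKM in WT and 0.17 and 1.30 in KO. MTCYBP18 and MTND5P11 stayed below 1 FPKM in every library, and MTND3P25 was at 0. These neighbours and MTND4P12 come from 1 insertion, yet their averages ran from 0 to 295.9 FPKM.

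MTCO2P2, a short copy of MT-CO2 on chromosome 18 (chr18:47853233-47853457, 225 bases), had 9.30 and 3.59 FPKM in WT and 0 and 14.6 in KO. The groups overlapped, and KO 2 was the highest library while KO 1 was at 0. Its log2 fold change of -2.28 had an SE of 2.18 and an adjusted p of 0.387 by limma, and without KO 1 the value was 1.33.

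**Figure D3:**
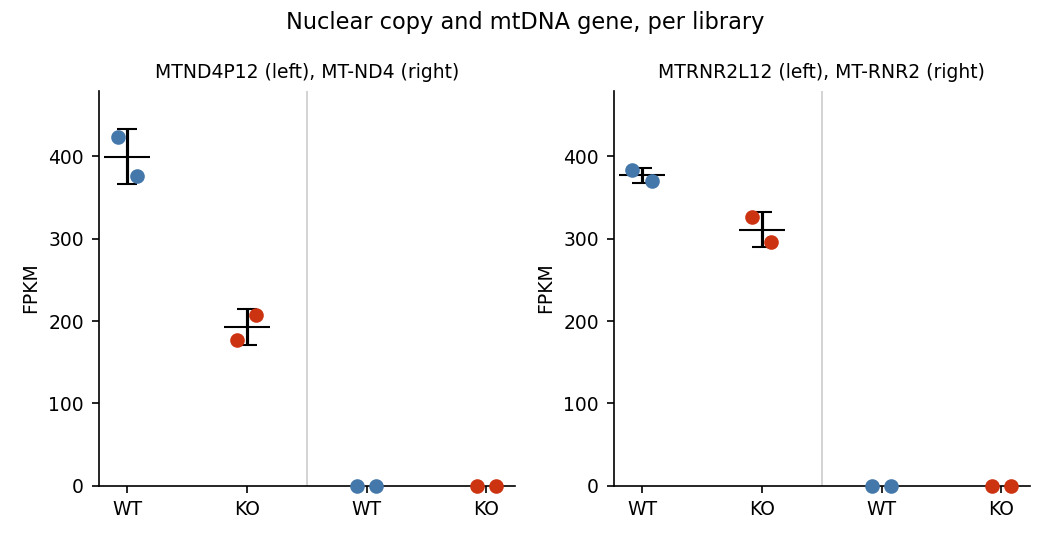
FPKM of the nuclear copies MTND4P12 and MTRNR2L12 and of their mtDNA counterparts MT-ND4 and MT-RNR2 in each library (blue WT, red KO), with horizontal lines for the mean and bars for the SD (n = 2). The copies lie between 177.0 and 423.0 FPKM, and both mtDNA genes lie at 0 in every library.

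The level of the copies did not rise steadily with identity to mtDNA, though those that averaged above 1 FPKM all had at least 95%. A total of 373 copies aligned to mtDNA. Among the 13 with at least 95% identity, 9 were at 0 and 3 averaged above 1 FPKM, and the 5 with at least 98% identity were all at 0. These 5 lie in the chromosome 1 locus described below, where all rows, copies or not, were at 0. The 6 copies with more than 50% of their windows within 2 mismatches of mtDNA were at 0 as well. Of the 355 without any such window, 320 were at 0 and none averaged above 1. The rows with values above 1 FPKM were thus found between these extremes, with 95.1% to 95.8% identity.

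**Figure D4:**
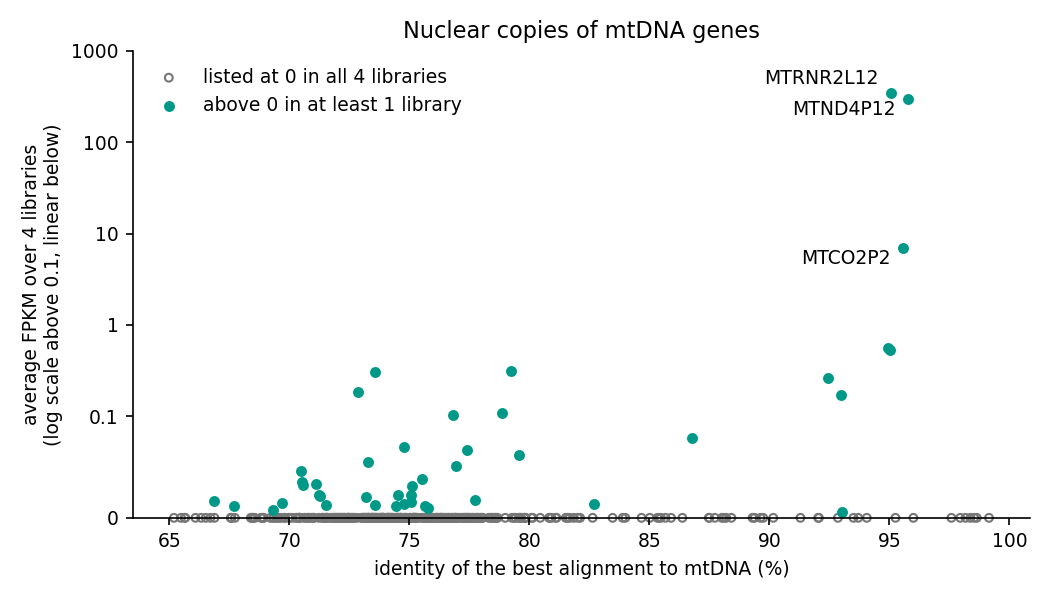
Average FPKM over the 4 libraries (log axis above 0.1, linear below) of nuclear copies of mtDNA genes against the identity of their best alignment to mtDNA (percent). Filled points are above 0 in at least 1 library, and the 3 named copies exceed 1 FPKM at 95.1% to 95.8% identity.

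The copies closest to mtDNA lie together on chromosome 1. MTND1P23 (99.2% identity), MTND2P28 (98.4%), MTCO1P12 (98.6%), MTCO2P12 (97.95%), MTATP8P1 (97.6%), MTATP6P1 (98.5%) and MTCO3P12 (98.2%) follow each other in the order of the mtDNA genes. All 7 were at 0 in the 4 libraries. They lie within the long gene RP5-857K21.4 (chr1:586071-827796), which was at 0 itself. All 19 other genes that overlap it were at 0, the 7 copies and 12 others, among them LINC00115, LINC01128 and FAM87B. How overlapping rows were treated in the quantification is not given in the sources used here.

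RNAs that normally lack a poly(A) tail were looked at beside the mtDNA genes, since the libraries were made from polyadenylated RNA. Of 10 such genes, each read from the row whose identifier carries its symbol, 5 were at 0 and 5 averaged above 1 FPKM. Limma called none of these 5 rows between KO and WT, nor had any an unadjusted p under 0.05. RN7SL1, the RNA of the signal recognition particle, had 73.9 and 240.1 FPKM in WT and 215.1 and 142.8 in KO. RN7SK, which holds an elongation factor inactive, had 0.0029 and 7.93 FPKM in WT and 17.96 and 9.16 in KO in the row counted here (ENSG00000283293). A second, more abundant RN7SK row (ENSG00000202198) had 43.5 and 184.0 FPKM in WT and 5.99 and 6.91 in KO. In that row the groups did not overlap and RN7SK was called lower, with a log2 fold change of -3.78 (SE 0.63, limma adjusted p = 0.0032), against 3.83 in the first row. The direction for RN7SK is therefore uncertain. The part of poly(A) capture in the zeros of the mtDNA genes was not tested.

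Nuclear genes that serve mtDNA were measured in all libraries. The lists held 146 genes, all tested, of which 49 were called lower, 5 higher and 92 not called, against 15.3% lower and 14.2% higher of all genes. Their median log2 fold change was -0.68, beside -0.09 for all tested genes. The subunit genes made up most of the lower calls, at 33 of 74, beside 1 higher call, and their median was -0.93. Among the 72 genes of mtDNA expression and maintenance, 16 were lower and 4 were higher, and the median was -0.08. With KO 1 left out, limma called none of the 146 and none of all 13246, although 87 and 7129 had an unadjusted p under 0.05. With KO 2 left out there was again no call, and 93 and 7307 had such a p. After rescaling to the same FPKM sum, 9 of the 146 were lower and 22 were higher, against 447 lower and 4380 higher of all 13246. Their median was then -0.0034 beside 0.59 for all genes. The direction of these changes is thus relative to the scale used, while the list median lay below that of all genes on both scales.

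In mtDNA transcription, POLRMT fell and TFAM rose. POLRMT, the polymerase, had 46.5 and 78.4 FPKM in WT and 17.8 and 19.5 in KO, a log2 fold change of -1.69 (limma adjusted p = 0.00202). TFAM, which packages mtDNA and opens its promoters, had 19.9 and 17.6 FPKM in WT and 42.8 and 45.8 in KO, a log2 fold change of 1.24 (limma adjusted p = 6.1e-04). TEFM, the elongation factor, was the other gene of this list called higher (1.09), and it was named after its values were seen. TFB2M, the initiation factor, was not called at 0.33, but it passed both thresholds after rescaling to the same FPKM sum (1.01). Both POLRMT and TFAM lost their call when length and GC content were corrected for, at -1.10 and 0.39.

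Of 16 genes of mitochondrial RNA processing and modification, 4 were called lower and none higher, and of 16 genes of RNA stability and decay, 4 were called lower and 1 higher. Among all genes tested, the shares were 15.3% lower and 14.2% higher. SLIRP, which with LRPPRC protects mitochondrial mRNAs, had 588.2 and 799.8 FPKM in WT and 191.2 and 241.0 in KO, a log2 fold change of -1.68, which rescaling to the same FPKM sum moved to -0.995, short of a call. LRPPRC itself was listed at 54.0 and 70.3 FPKM in WT and at 66.6 and 65.5 in KO, a log2 fold change of 0.10, and was not called. The helicase of the mitochondrial degradosome, SUPV3L1, had a log2 fold change of -1.75 and was called lower. MTPAP, the poly(A) polymerase, stood at 8.96 and 10.1 FPKM in WT and at 16.03 and 14.3 in KO, and its log2 fold change of 0.67 stayed under 2-fold. Rescaled to the same FPKM sum it passed both thresholds, at 1.35. The tRNA thiolase TRMU (-1.08) and the rRNA methyltransferase MRM1 (-1.11) were called lower. Rescaling to the same FPKM sum (-0.40 and -0.43) and the length and GC correction (-0.46 and -0.25) each ended both calls. PDE12, which shortens poly(A) tails, was the gene called higher (1.29) and was named after its values were seen, and its value was 0.28 and not called with the length and GC correction.

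Of the 19 genes of mtDNA replication and maintenance, 4 were called lower and 1 higher, beside 15.3% lower and 14.2% higher of all genes tested. RRM2B, a ribonucleotide reductase subunit that supplies nucleotides for mtDNA, had 3.61 and 4.15 FPKM in WT and 11.3 and 12.3 in KO, a log2 fold change of 1.59. The topoisomerase TOP1MT was called lower at -1.44, a call lost with rescaling (-0.76) and with the length and GC correction (-0.84). That correction also ended the call of RRM2B, at 0.74. POLG, the mtDNA polymerase (-0.96), SSBP1, the single-strand binding protein (-0.90), and TWNK, the helicase (-0.05), were not called. Of 13 translation factors 3 were called lower, among them the elongation factor TUFM (-1.17) and the MT-CO1 translational activator TACO1 (-1.21). Both calls were lost with rescaling (-0.49 and -0.53) and with the length and GC correction (-0.60 and -0.46).

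Nuclear subunits were called lower in each complex, with 17 of 37 genes in complex I, 3 of 9 in complex III, 7 of 11 in complex IV and 6 of 17 in complex V. Among all genes tested, the share called lower was 15.3%. NDUFS6 of complex I had 694.0 and 890.6 FPKM in WT and 163.4 and 166.9 in KO, a log2 fold change of -2.25. NDUFA3 followed at -2.06. NDUFS1 was the subunit called higher (1.07), named after its values were seen, and with the length and GC correction it stood at -0.0004. UQCRQ (-1.25) and UQCRC1 (-1.11) of complex III were called lower, as were COX5B (-1.36) and COX4I1 (-1.33) of complex IV. All 4 calls were lost with rescaling to the same FPKM sum, in this order at -0.57, -0.43, -0.68 and -0.65, and with the length and GC correction, at -0.96, -0.35, -0.82 and -0.73. In complex V, ATP5F1D (-1.72) and ATP5PF (-1.67) were called lower. ATP5F1D lost its call with the length and GC correction (-0.76) and ATP5PF with rescaling (-0.99), while NDUFS6 and NDUFA3 kept theirs under both. With WT 2 left out, TRMU (-0.97), UQCRQ (-0.98), UQCRC1 (-0.92) and NDUFS1 (0.99) fell short of 2-fold. With WT 1 left out TEFM did so (0.99), while POLG (-1.16) and SSBP1 (-1.07) passed both thresholds. The mtDNA partners of these proteins, listed at 0, could not be set beside them.

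**Figure D5:**
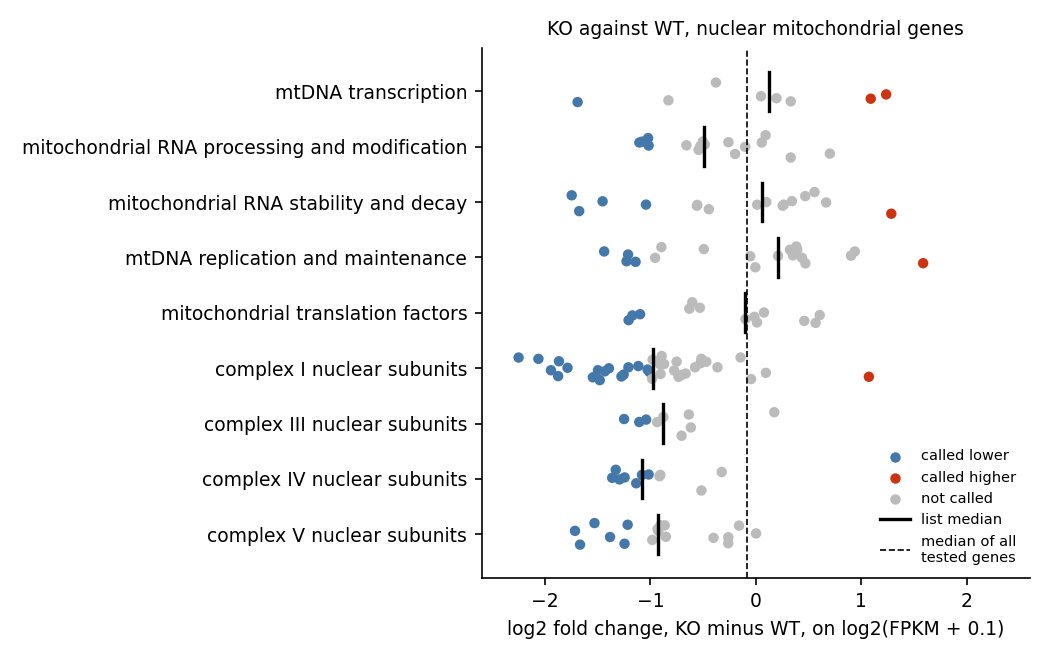
Log2 fold change (KO minus WT, log2(FPKM + 0.1)) of each gene in 9 lists of nuclear mitochondrial genes. Blue points were called lower, red points higher and grey points not called, black bars mark list medians, and the dashed line marks the median of all tested genes (-0.09).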

How the data were processed

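RNA from 2 WT and 2 KO libraries was captured by poly(A), mapped to hg38 with TopHat2 and quantified with Cuffdiff per the labels and the study's methods. The authors deposited FPKM values per gene and library. Tool versions, library normalization and strand use are not given in the sources used here. The files hold no counts, so the depth is unknown and no counting intervals are given. Columns of the authors' own comparison were not used.

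Of 231916 lines, 57979 held values. Each identifier occurred 4 times, out of register with the symbols. Identifiers were put back in order, after which 37 of 37 MT- symbols matched theirs. Positions came from GENCODE 44, which held 56935 identifiers, and from RefSeq for copies without a position there, such as MTRNR2L12.

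The comparison of KO with WT used limma 3.58.1 in R 4.3.3 and all 4 libraries. It took log2 values after a pseudocount of 0.1 was added to the deposited FPKM, for the 13246 genes that averaged above 1 (trend in the prior variance, two-sided test, Benjamini-Hochberg adjustment over all of them). The thresholds of 0.01 for the adjusted p and 2 for the fold follow the study. Planned tests on mtDNA genes gave no value, since all were at 0. The smallest p an exact permutation test of 2 against 2 libraries allows would also have been above 0.05. The fit was also run on simulated data, where 100% of 200 changed genes (log2 change of 2) among 13246 were recovered with 0 false calls. The simulation gave every gene the same spread and the libraries no difference in scale, unlike the deposited values. It therefore does not measure how accurate the calls in the deposited values are. In the deposited values, 3906 genes were called. Recovery of changes smaller than a log2 change of 2, and false calls in the deposited values, were not tested.

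Copies were aligned to mtDNA with BLAST 2.17.0, and windows of 100 bases were searched on the nuclear chromosomes with up to 2 mismatches. Alternatives were pseudocounts of 1 and 0.01, no filter or an average above 5, rescaling to TPM with and without mtDNA genes, centring on the median, no trend, an adjusted p under 0.05, a loess correction (span 0.3) for length and GC content, the replicate block, and leaving out each library. Testing rows above 0 in at least 1 library was added after seeing the data. The members and the gene lists were chosen with earlier results of these data known. Named nuclear genes are the 2 members of each list with the largest change and 9 genes of mtDNA expression and maintenance, and named copies are the 3 with the highest average. The other copies and genes were named after their values were seen. Python 3.11.15, pandas 2.3.3, pysam 0.24.0 and matplotlib 3.10.9 were used.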

Additional observations from a re-analysis of the deposited data

How the results depend on the processing

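The mtDNA protein genes called were 0 under every alternative run. They entered a fit only without a filter on low values, where limma gave 0 of 37 genes an unadjusted p under 0.05. With every value at 0, both outcomes were fixed in advance, so they do not test for a change. Of all 13246 genes, 2021 were called lower and 1885 higher. An average above 5 FPKM left 9593 genes to test, with 1704 lower and 1220 higher calls. Rescaling to TPM gave 447 lower and 4380 higher calls (the same without mtDNA genes). The length and GC correction gave 1012 lower and 836 higher calls among 13112 genes. Leaving out 1 library gave 0 to 2633 lower and 0 to 2136 higher calls, with 0 for either KO library. Of the 146 nuclear mitochondrial genes, 49 were lower and 5 higher, against 9 and 22 with TPM, 20 and 2 with the length and GC correction, and 0 to 66 and 0 to 6 with 1 library left out (32 lower without WT 2). Their median was -0.0034 with TPM. MTND4P12 had a log2 fold change of -0.375 with TPM, also without mtDNA genes, and -0.79 with the length and GC correction, and -1.17 to -0.94 with 1 library left out. MTRNR2L12 reversed to 0.40 with TPM, also without mtDNA genes. With 1 library left out, MTCO2P2 ran from -5.88 to 1.33, LRPPRC from -0.0903 to 0.29 and TWNK from -0.14 to 0.0308. LRPPRC (-0.75) and MTPAP (-0.0812) reversed with the length and GC correction and TWNK (0.62) with TPM. List medians reversed with the length and GC correction for transcription (-0.0131), RNA stability (-0.57) and replication (-0.0360), with TPM for RNA processing (0.18) and translation factors (0.58), and for RNA stability with 1 library left out (-0.0707 to 0.18). The cause of these shifts was not tested. In fits with 1 library in a group, it is assumed to vary like the other group. The replicate block gave 2146 lower and 1960 higher calls of all genes and the same counts for the nuclear lists. Same-numbered libraries did not deviate together (r = -0.09 across 13246 genes), so the numbers are not taken as pairs. Shares of mtDNA genes in a library, and of each protein gene among the 13, gave no value to vary. Depth is unknown and limits what any 0 can show.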
